A study of Mus musculus with 114 samples.

Results

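To follow how fatty acids enter and are carried within adipocytes during high fat feeding, 8 genes were taken by symbol from the 29132 genes listed: Lpl, Gpihbp1, Vldlr, Cd36, Slc27a1, Slc27a4, Fabp4 and Fabp5. RNA-seq had been performed on perigonadal fat cells of 38 C57BL/6J mice, all male, fed either chow (CD) or a high fat diet (HFD) starting at 6 weeks of age and briefly fasted before collection. Each group held 6 mice per diet at 8, 20 or 34 weeks of diet, except CD at 34 weeks, which held 8. The adipocytes were the cells that float after collagenase digestion and centrifugation of the fat pad, so other cells that stay with them add to the RNA, and the CD mice aged together with the HFD mice. All 8 genes were detected in every mouse, and all 8 were among the 10343 genes whose mean log2(CPM + 1) over the 38 mice was above 2, where CPM is the count of a gene per 1000000 reads on genes.

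Triglyceride reaches adipose tissue in circulating lipoproteins. Lipoprotein lipase is made by adipocytes and carried to the capillary surface by an anchoring protein of endothelial cells, where it releases fatty acids. CD36 and the fatty acid transport proteins then aid uptake across the plasma membrane, and fatty acid binding proteins carry the acids inside the cell. VLDLR is a cell surface receptor that binds triglyceride-rich lipoproteins.

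The RNA carried the markers of adipocytes, whose 10 listed genes (Adipoq, Plin1, Lep, Cfd, Plin4, Cidec, Pnpla2, Lipe, Slc2a4 and Retn) summed to between 11460 and 57390 CPM per mouse. Of these, 3, 10 and 8 differed between the diets at 8, 20 and 34 weeks, beside 44.9%, 57.0% and 43.2% of all genes tested. All were lower in HFD except 1 at 8 and 1 at 20 weeks. By medians the 10 genes summed to 47880 CPM in CD and 29150 in HFD at 8 weeks. The medians were 47140 and 18500 at 20 weeks, and 28040 and 15500 at 34 weeks. Markers of T cells and B cells summed to at most 5.82 CPM per list. The depth lay between 9275711 and 15480388 reads on genes, 1 read being worth 0.0646 to 0.108 CPM, and the diets did not overlap in this depth at 8 weeks (10562845 to 12611013 in CD, 13201234 to 15480388 in HFD). CPM has a fixed sum, and the median log2 fold change of all genes tested, HFD against CD, was 0.11 at 8 weeks, 0.14 at 20 weeks and 0.074 at 34 weeks. With TMM factors, which rescale each mouse to a typical gene, these medians became 0.0058, -0.071 and -0.012. The share of genes called that were higher in HFD then moved from 66.3% to 51.4%, from 67.1% to 44.7% and from 63.6% to 51.9%.

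The binding proteins and the transport proteins are related pairs, and parts of their coding sequences (GENCODE, GRCm38, read 5′ to 3′) are shown because the comparison of their levels needs reads that tell them apart. Fabp4 and Fabp5 have coding sequences of 399 and 408 bases, which were identical at 60.9% of the aligned bases with a longest identical run of 12. The most alike window of 60 bases, at coding positions 55 to 114 of Fabp4 and 61 to 120 of Fabp5, held 44 identical bases. Capitals mark the bases that differ.
Fabp4: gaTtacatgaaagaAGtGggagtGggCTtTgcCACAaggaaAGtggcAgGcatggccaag
Fabp5: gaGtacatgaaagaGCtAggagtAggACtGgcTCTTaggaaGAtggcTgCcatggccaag
Slc27a1 and Slc27a4, with coding sequences of 1941 and 1932 bases, were identical at 66.2% of the aligned bases, with a longest identical run of 26. Their most alike window, at coding positions 736 to 795 of Slc27a1 and 727 to 786 of Slc27a4, held 52 identical bases of 60.
Slc27a1: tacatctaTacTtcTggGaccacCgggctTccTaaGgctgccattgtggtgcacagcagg
Slc27a4: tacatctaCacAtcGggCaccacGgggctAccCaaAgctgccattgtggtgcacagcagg
Neither pair shared 30 coding bases in a row. Fabp5 shared such stretches with 5 processed pseudogenes, the longest being 179 bases with Gm6166, whose own level reached at most 1.73 CPM in any mouse. The share of Fabp5 reads lost or gained through these copies was not tested.

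Levels of different genes were compared as CPM per kilobase of the longest principal transcript. By medians over all mice the order was Fabp4 (16810), Lpl (3006), Cd36 (1484), Fabp5 (341), Slc27a1 (225), Gpihbp1 (20.0), Vldlr (13.1) and Slc27a4 (11.1). Fabp4, Lpl and Cd36 took the first places in all 6 groups, and only in HFD at 20 weeks did the ranges of neighbours among them overlap, those of Lpl and Cd36. Per kilobase of all annotated exons instead, the order turned in 3 places: Cd36 (1405) stood above Lpl (1180), Slc27a1 (108) above Fabp5 (94.5), and Gpihbp1 (6.45) last, below Vldlr (10.3) and Slc27a4 (10.2). The next places changed hands between groups: Slc27a1 stood above Fabp5 without overlap in CD at 8 weeks (388 against 60.9) and at 20 weeks (445 against 78.0). Fabp5 stood above Slc27a1 in CD at 34 weeks (487 against 217) and in HFD at 34 weeks (414 against 161), again without overlap. Per kilobase of all exons the medians at 34 weeks kept this order (135 against 104 in CD, 115 against 77.1 in HFD), but the ranges overlapped. In HFD at 8 and 20 weeks Fabp5 had the higher median (250 against 176, and 348 against 180), but the ranges overlapped, and per kilobase of all exons the order at 8 weeks was the other way (69.2 against 84.2). Vldlr, Slc27a4 and Gpihbp1 took the lowest places, and their neighbouring ranges overlapped in every group except Vldlr and Slc27a4 in HFD at 8 and 20 weeks. By CPM, the medians of Fabp4, Lpl and Cd36 ranked 3, 4 and 9 among all genes listed.

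**Figure D1:**
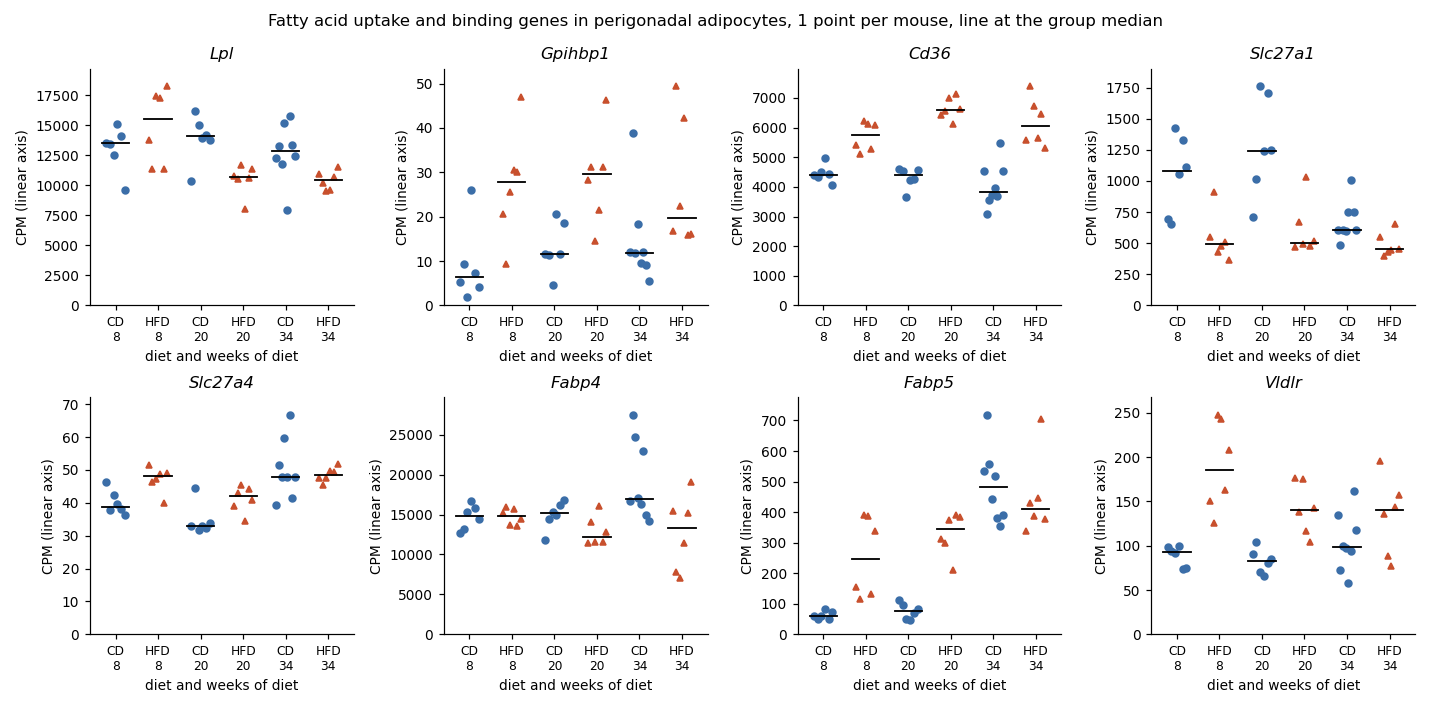
Each panel plots the CPM of 1 gene on a linear axis from 0, by diet (circles CD, triangles HFD) and weeks of diet, with 1 point per mouse and a line at the group median. Fabp5 lies at 47.3 to 111 CPM in the CD mice at 8 and 20 weeks and at 356 to 718 CPM in the CD mice at 34 weeks.

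At 8 weeks, 6 of the 8 genes differed between the diets (5 higher in HFD and 1 lower), at 20 weeks 7 (5 higher and 2 lower), and at 34 weeks 2 (1 higher and 1 lower). Differences were tested with limma on log2(CPM + 1) with Benjamini-Hochberg adjustment over the 10343 genes and called at an adjusted p under 0.05. The same rule called 44.9% of all genes tested at 8 weeks (29.8% higher, 15.1% lower), 57.0% at 20 weeks (38.3% higher, 18.7% lower) and 43.2% at 34 weeks (27.5% higher, 15.7% lower). The median log2 fold change over the 8 genes was 0.29, 0.44 and -0.083 at the 3 times. The groups did not overlap at all in 3 genes at 8 weeks (Cd36, Fabp5 and Vldlr), in 2 at 20 weeks (Cd36 and Fabp5) and in 0 at 34 weeks, which 22.8%, 37.2% and 2.46% of all genes tested did. In bulk RNA, fewer or more cells of a type and less or more RNA per cell cannot be told apart. With TMM factors, 3 genes were higher and 1 lower at 8 weeks, and 3 higher and 2 lower at 20 weeks. Over all genes tested these factors gave 2339 higher and 2212 lower at 8 weeks, and 2718 higher and 3356 lower at 20 weeks.

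**Figure D2:**
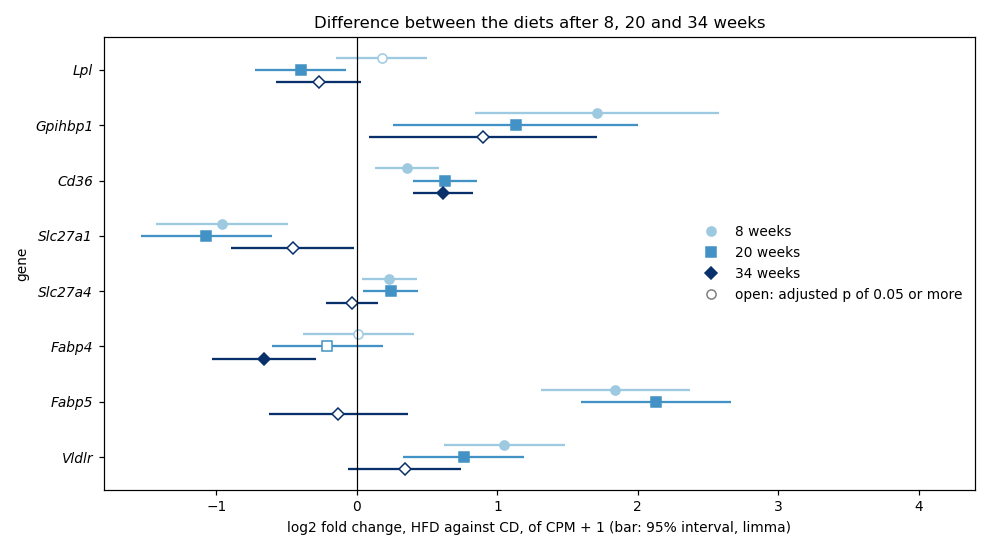
The horizontal axis is the log2 fold change of CPM + 1, HFD against CD, with its 95% interval from limma, at 8 (circles), 20 (squares) and 34 weeks (diamonds); filled symbols passed an adjusted p of 0.05. Fabp5 stands at 1.84 and 2.13 at 8 and 20 weeks and at -0.13 at 34 weeks.

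Lpl, which encodes lipoprotein lipase (chr8:68880555-68906932, GRCm38), did not pass the test between the diets at 8 weeks and was lower in HFD mice at 20 weeks. In CD mice the lowest, median and highest CPM were 9620, 13500 and 15120 at 8 weeks, 10320, 14060 and 16140 at 20 weeks, and 7945, 12830 and 15800 at 34 weeks. In HFD mice they were 11320, 15510 and 18250 at 8 weeks, 8032, 10710 and 11650 at 20 weeks, and 9511, 10440 and 11550 at 34 weeks. The diets overlapped at every time, and at 8 weeks 3 of 6 HFD mice exceeded every CD mouse. The log2 fold change was 0.18 ± 0.16 (SE) at 8 weeks (95% interval -0.15 to 0.50, adjusted p = 0.372), -0.40 ± 0.16 at 20 weeks (adjusted p = 0.0314) and -0.27 ± 0.15 at 34 weeks (adjusted p = 0.139). Among HFD mice, Lpl fell by 0.49 on the log2 scale both from 8 to 20 weeks (adjusted p = 0.0171) and from 8 to 34 weeks (adjusted p = 0.00991). The call at 20 weeks was lost without CD mouse 2 (-0.35, adjusted p = 0.0714), 3 (-0.38, 0.0602) or 5 (-0.39, 0.0507) or HFD mouse 4 (-0.33, 0.0874), and with the mean log2(CPM + 1) of 11 macrophage markers as a covariate (-0.15, adjusted p = 0.606). At 34 weeks the difference passed the threshold without CD mouse 5 (-0.36, adjusted p = 0.0301). With the macrophage covariate the falls among HFD mice from 8 to 20 and from 8 to 34 weeks also lost their calls (-0.30 and -0.24).

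Gpihbp1, which encodes the endothelial protein that binds lipoprotein lipase (chr15:75596630-75598213, GRCm38), was higher in HFD at 8 and 20 weeks, and it moved with the markers of endothelial cells. In CD mice the lowest, median and highest CPM were 1.99, 6.34 and 26.1 at 8 weeks, 4.49, 11.6 and 20.6 at 20 weeks, and 5.51, 11.8 and 38.9 at 34 weeks. The HFD mice gave 9.39, 27.7 and 47.0 at 8 weeks, 14.5, 29.7 and 46.3 at 20 weeks, and 15.8, 19.6 and 49.4 at 34 weeks. The diets overlapped at every time, and the highest mouse stood 13.1 times above the lowest within CD at 8 weeks. On the log2 scale Gpihbp1 differed by 1.71 ± 0.43 at 8 weeks (adjusted p = 0.00192), 1.13 ± 0.43 at 20 weeks (adjusted p = 0.0242) and 0.90 ± 0.40 at 34 weeks (adjusted p = 0.0675). The call at 20 weeks was lost without CD mouse 3 (0.88, adjusted p = 0.0861) or HFD mouse 6 (0.98, adjusted p = 0.0646) and with TMM factors (0.93, adjusted p = 0.0596). At 34 weeks the difference passed without CD mouse 2 (1.12, adjusted p = 0.0199), HFD mouse 6 (1.01, adjusted p = 0.0486) or the CD mouse 4 of 8 weeks (0.90, adjusted p = 0.0448).

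Beside 29.8%, 38.3% and 27.5% of all genes tested, 12, 8 and 8 of 12 endothelial markers were higher in HFD at 8, 20 and 34 weeks. None of these markers was at 0 in every mouse of a group. Their summed level ranged from 39.0 to 399 CPM in CD and from 120 to 595 in HFD at 8 weeks, from 66.7 to 255 and from 236 to 646 at 20 weeks, and from 75.7 to 230 and from 146 to 667 at 34 weeks. Across the 38 mice, which share the group differences, Pearson's r between Gpihbp1 and the mean of these markers was 0.934, and it was 0.919 for deviations from the group means. In an analysis chosen after seeing the data, with the mean of the endothelial markers as a covariate, the log2 fold change of Gpihbp1 was 0.29 (adjusted p = 0.313), -0.089 (adjusted p = 0.747) and -0.26 (adjusted p = 0.313) at 8, 20 and 34 weeks. The median number of Lpl reads per Gpihbp1 read was 2120 in CD and 616 in HFD at 8 weeks, 1054 and 357 at 20 weeks, and 1009 and 537 at 34 weeks.

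**Figure D3:**
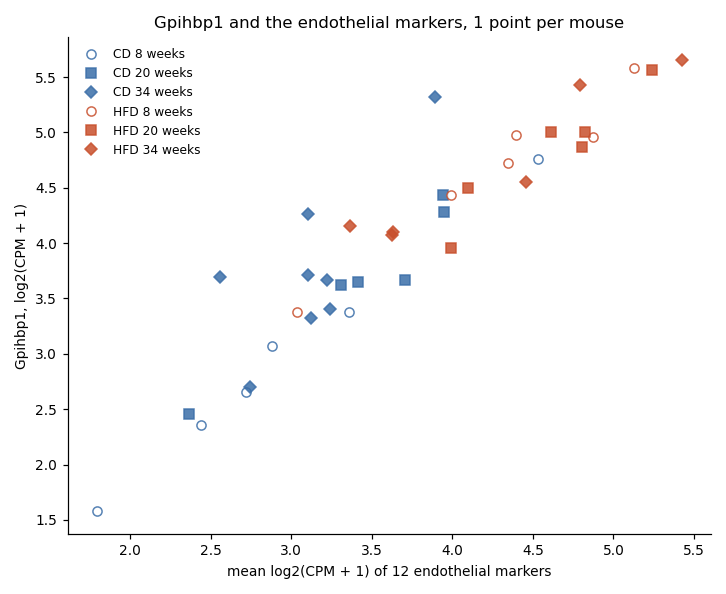
Each point is 1 mouse, with the mean log2(CPM + 1) of 12 endothelial markers on the horizontal axis and the log2(CPM + 1) of Gpihbp1 on the vertical axis; blue marks CD, red HFD, and the shape the weeks of diet. The points lie along a rising band (r = 0.934 over 38 mice), with the lowest points from CD mice.

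Vldlr, the lipoprotein receptor (chr19:27216480-27254231, GRCm38), was about 2-fold higher in HFD at 8 weeks, with every HFD mouse above every CD mouse, and remained higher at 20 weeks. In CD mice the lowest, median and highest CPM were 74.3, 93.1 and 99.5 at 8 weeks, 66.0, 82.7 and 104 at 20 weeks, and 57.5, 98.4 and 162 at 34 weeks. On HFD they were 125, 186 and 248 at 8 weeks, 104, 140 and 177 at 20 weeks, and 77.5, 140 and 196 at 34 weeks. At 20 weeks 5 of 6 HFD mice exceeded all CD mice, and at 34 weeks 1 of 6. Vldlr had a log2 fold change of 1.05 ± 0.21 at 8 weeks (adjusted p = 0.000242), 0.76 ± 0.21 at 20 weeks (adjusted p = 0.0027) and 0.34 ± 0.20 at 34 weeks (adjusted p = 0.162). Among HFD mice, Vldlr fell by 0.53 on the log2 scale from 8 to 34 weeks (adjusted p = 0.0337). That fall lost its call without any one of HFD mice 3, 4 and 6 of 8 weeks (-0.45, -0.45 and -0.50) or HFD mice 3 and 4 of 34 weeks (-0.43 and -0.39), with adjusted p up to 0.126. Its call was also lost with the macrophage markers as a covariate (-0.32).

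Cd36, the membrane protein that binds long-chain fatty acids (chr5:17781690-17888959, GRCm38), was the only 1 of the 8 genes called higher in HFD at all 3 times. In CD mice the lowest, median and highest CPM were 4057, 4407 and 4991 at 8 weeks, 3650, 4406 and 4610 at 20 weeks, and 3070, 3838 and 5465 at 34 weeks. The HFD values were 5098, 5755 and 6220 at 8 weeks, 6119, 6609 and 7136 at 20 weeks, and 5311, 6059 and 7401 at 34 weeks. The groups were separate at 8 and 20 weeks, and at 34 weeks 5 of 6 HFD mice lay above every CD mouse. Cd36 had a log2 fold change of 0.36 ± 0.11 at 8 weeks (adjusted p = 0.0108), 0.63 ± 0.11 at 20 weeks (adjusted p = 1.93e-05) and 0.62 ± 0.11 at 34 weeks (adjusted p = 6.45e-05). The call at 8 weeks was lost under 7 of 13 alternatives. Among them were TMM factors (0.25, adjusted p = 0.0621), edgeR, and the macrophage (0.27, adjusted p = 0.0826) and endothelial markers (0.26, adjusted p = 0.137) as covariates. The calls at 20 and 34 weeks held with TMM factors (0.41 and 0.53) and were lost only where a 2-fold change was required.

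Slc27a1 and Slc27a4 encode fatty acid transport proteins with acyl-CoA synthetase activity, FATP1 and FATP4, and the abundant member of the pair fell in HFD mice. For Slc27a1 (chr8:71568728-71587307, GRCm38) the lowest, median and highest CPM in CD mice were 656, 1083 and 1426 at 8 weeks, 711, 1244 and 1762 at 20 weeks, and 489, 605 and 1004 at 34 weeks. HFD mice had 361, 491 and 912 at 8 weeks, 470, 503 and 1032 at 20 weeks, and 399, 450 and 652 at 34 weeks. At 8 and 20 weeks 5 of 6 HFD mice lay below every CD mouse, and at 34 weeks 4 of 6. The log2 fold change of Slc27a1 was -0.96 ± 0.23 at 8 weeks (adjusted p = 0.00132), -1.07 ± 0.23 at 20 weeks (adjusted p = 0.000193) and -0.46 ± 0.22 at 34 weeks (adjusted p = 0.0822). With the endothelial markers as a covariate the call at 8 weeks was lost (-0.51, adjusted p = 0.0992) and that at 20 weeks was not (-0.69, adjusted p = 0.0126).

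Slc27a4 (chr2:29802634-29817522, GRCm38) held a narrow range. Its lowest, median and highest CPM in CD mice were 36.2, 38.8 and 46.3 at 8 weeks, 31.7, 33.0 and 44.4 at 20 weeks, and 39.4, 47.9 and 66.7 at 34 weeks. With HFD the values were 40.1, 48.1 and 51.4 at 8 weeks, 34.6, 41.9 and 45.3 at 20 weeks, and 45.5, 48.5 and 51.8 at 34 weeks. The diets overlapped at every time, and at 8 weeks 5 of 6 HFD mice exceeded all CD mice. Slc27a4 had a log2 fold change of 0.23 ± 0.096 at 8 weeks (adjusted p = 0.0472), 0.24 ± 0.096 at 20 weeks (adjusted p = 0.0309) and -0.035 ± 0.090 at 34 weeks (adjusted p = 0.772, 95% interval -0.22 to 0.15). These 2 calls were near the threshold, since leaving out any one of 20 mice ended the first (adjusted p up to 0.101) and any one of 7 the second (up to 0.073), as did TMM factors (0.13, adjusted p = 0.371, and 0.031). The median number of Slc27a4 reads per 1000 Slc27a1 reads was 35.0 in CD and 98.2 in HFD at 8 weeks, 26.9 and 81.2 at 20 weeks, and 72.9 and 111 at 34 weeks.

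Fabp4, the adipocyte fatty acid binding protein also known as aP2 (chr3:10204342-10208616, GRCm38), was the most abundant of the 8 genes per kilobase and showed no difference past the threshold until 34 weeks. In CD mice the lowest, median and highest CPM were 12730, 14860 and 16730 at 8 weeks, 11770, 15160 and 16770 at 20 weeks, and 14150, 16890 and 27470 at 34 weeks. For the HFD mice these were 13580, 14830 and 15980 at 8 weeks, 11430, 12190 and 16060 at 20 weeks, and 7001, 13280 and 19120 at 34 weeks. Both diets spread most at 34 weeks, where the SD was 5010 CPM in CD and 4745 in HFD, and 3 of 6 HFD mice lay below every CD mouse. Fabp4 had a log2 fold change of 0.0098 ± 0.19 at 8 weeks (adjusted p = 0.971, 95% interval -0.39 to 0.40), -0.21 ± 0.19 at 20 weeks (adjusted p = 0.361) and -0.66 ± 0.18 at 34 weeks (adjusted p = 0.00429). The sign at 8 weeks turned with TMM factors (-0.097). The call at 34 weeks was lost when only the mice of 34 weeks were fitted (adjusted p = 0.0949), with a weight for each mouse (-0.37, adjusted p = 0.0793) and with the macrophage markers as a covariate (-0.48, adjusted p = 0.154).

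Fabp5, the fatty acid binding protein known from epidermis and macrophages and also made in adipocytes (chr3:10012585-10016610, GRCm38), showed the largest diet difference of the 8 genes at 8 and 20 weeks on the log2(CPM + 1) scale, although by the ratio of medians Gpihbp1 (4.37) stood above it (4.11) at 8 weeks. In CD mice the lowest, median and highest CPM were 48.5, 60.1 and 82.9 at 8 weeks, 47.3, 77.0 and 111 at 20 weeks, and 356, 481 and 718 at 34 weeks. Under HFD they were 115, 247 and 390 at 8 weeks, 212, 343 and 392 at 20 weeks, and 337, 409 and 703 at 34 weeks. The diets were separate at 8 and 20 weeks and overlapped at 34 weeks, where 1 of 6 HFD mice lay below every CD mouse and none above. By medians, HFD stood 4.11-fold above CD at 8 weeks, 4.46-fold at 20 weeks and at 0.85 of CD at 34 weeks. Fabp5 had a log2 fold change of 1.84 ± 0.26 at 8 weeks (adjusted p = 3.81e-06), 2.13 ± 0.26 at 20 weeks (adjusted p = 1.12e-07) and -0.13 ± 0.24 at 34 weeks (adjusted p = 0.681, 95% interval -0.63 to 0.37).

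The change of the Fabp5 difference with time was itself called. The diet difference was smaller at 34 than at 20 weeks by -2.26 ± 0.36 (adjusted p = 0.000249) and smaller at 34 than at 8 weeks by -1.97 ± 0.36 (adjusted p = 0.000175), comparisons that called 10.5% and 28.8% of all genes tested. No other gene of the 8 was called in either, and 0 of 8 were called for the change from 8 to 20 weeks, where 4.49% of all genes were, edgeR called 0 and DESeq2 called 1, and where 1 of the 8 (Lpl) had an unadjusted p under 0.05. Within HFD at 8 weeks the mice differed together. In mice 3, 4 and 6 Fabp5 was 390, 387 and 337 CPM, against 115 to 156 in mice 1, 2 and 5. The same 3 mice were the highest of their group in Lpl (17460, 17300 and 18250 CPM) and in Vldlr (248, 243 and 209 CPM). They were also the highest in Cd36 (6220, 6109 and 6083 CPM) and the lowest in Slc27a1 (426.5, 474 and 360.8 CPM). In Fabp4 and Gpihbp1 they did not stand together at either end.

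Markers of macrophages, which also make Fabp5, moved with it in part. Beside 29.8%, 38.3% and 27.5% of all genes tested, 8, 9 and 10 of 11 macrophage markers were higher in HFD at 8, 20 and 34 weeks. Beside 4151 of the 10343 genes tested, 10 of these markers were higher in CD at 34 than at 8 weeks. Their summed level ranged from 297 to 1545 CPM in CD and from 1083 to 3173 in HFD at 8 weeks, from 451 to 3203 and from 4447 to 8468 at 20 weeks, and from 1161 to 12400 and from 5159 to 15250 at 34 weeks. None was at 0 in every mouse of a group. Of 9 markers of lipid-associated macrophages, 9, 9 and 8 were higher in HFD at the 3 times and 9 in CD at 34 against 8 weeks. Pearson's r of Fabp5 with the mean of the macrophage markers was 0.77 over the 38 mice, which share the group differences. It was 0.509 for deviations from the group means. With the lipid-associated macrophage list r was higher, 0.809, and 0.53 for deviations. That list was not used as a covariate. Of 7 stromal markers tested, 4, 7 and 4 were higher in HFD, and r of Fabp5 with the stromal list was 0.723, and 0.661 for deviations. The part of stromal cells was not tested. With the macrophage mean as a covariate the log2 fold change of Fabp5 was 1.43 at 8 weeks (adjusted p = 0.000106), 1.48 at 20 weeks (adjusted p = 0.000555) and 2.32 for CD at 34 against 8 weeks (adjusted p = 1.92e-07). At 34 weeks Fabp5 did not pass the test between the diets with this covariate either (-0.59, adjusted p = 0.148).

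In CD mice Fabp5 and both transport genes differed between 34 weeks and the earlier times. From 8 to 20 weeks 0 of the 8 genes were called by limma, DESeq2 or edgeR (1, Slc27a4, had an unadjusted p under 0.05), against 3.58% of all genes tested, with log2 fold changes from -0.21 to 0.72. From 8 to 34 weeks 3 were called (64.7% of all genes tested), and from 20 to 34 weeks also 3 (62.5%). Fabp5 rose 8.0-fold by medians from 8 to 34 weeks (log2 2.93 ± 0.24, adjusted p = 6.26e-11) and 6.25-fold from 20 to 34 weeks (log2 2.69 ± 0.24, adjusted p = 1.17e-10), with all 8 older mice above all younger ones, a separation that 24.7% and 20.0% of all genes tested also showed. Slc27a1 fell by 0.60 from 8 weeks (adjusted p = 0.0155) and by 0.89 from 20 weeks (adjusted p = 0.000651). Slc27a4 rose by 0.31 (adjusted p = 0.00336) and by 0.51 (adjusted p = 1.17e-05). Without CD mouse 3 of 8 weeks the difference of Slc27a1 from 8 weeks was -0.50 (adjusted p = 0.0536), with the macrophage markers as a covariate it was -0.31 (adjusted p = 0.341), and with TMM factors the rise of Slc27a4 from 8 weeks was 0.18 (adjusted p = 0.137). The 5 genes not called from 8 to 34 weeks had log2 fold changes from -0.15 to 0.80 (adjusted p from 0.0802 to 0.80). Comparisons with CD at 34 weeks share mice with the diet comparison at that time.

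In HFD mice Lpl, Vldlr and Fabp5 differed between the times. From 8 to 20 weeks 1 gene was called (Lpl, as above), against 36.5% of all genes tested, and from 8 to 34 weeks 3 (Lpl, Vldlr and Fabp5), against 52.5%. Fabp5 rose by 0.96 ± 0.26 on the log2 scale from 8 to 34 weeks (adjusted p = 0.00269). With the macrophage markers as a covariate every one of these calls was lost. From 8 to 34 weeks the values were then 0.30 for Fabp5, -0.24 for Lpl and -0.32 for Vldlr. From 8 to 20 weeks Lpl was then at -0.30. The calls of Lpl and Vldlr were also lost with no filter on low values. From 20 to 34 weeks 0 were called by limma, DESeq2 or edgeR (1, again Slc27a4, had an unadjusted p under 0.05), against 30.2% of all genes tested, with log2 fold changes from -0.27 to 0.43 and adjusted p from 0.0589 to 0.983.

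Within a mouse, the number of Fabp5 reads per 1000 Fabp4 reads had a median of 4.33 in CD and 16.8 in HFD at 8 weeks, 4.66 and 28.6 at 20 weeks, and 26.0 and 42.8 at 34 weeks. The diets were separate in this ratio at 8 weeks (3.17 to 5.13 in CD, 7.21 to 28.6 in HFD) and at 20 weeks (3.16 to 9.47 and 13.2 to 34.0). At 34 weeks they overlapped (16.6 to 32.0 and 19.8 to 55.3). The ratios were not tested.

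**Figure D4:**
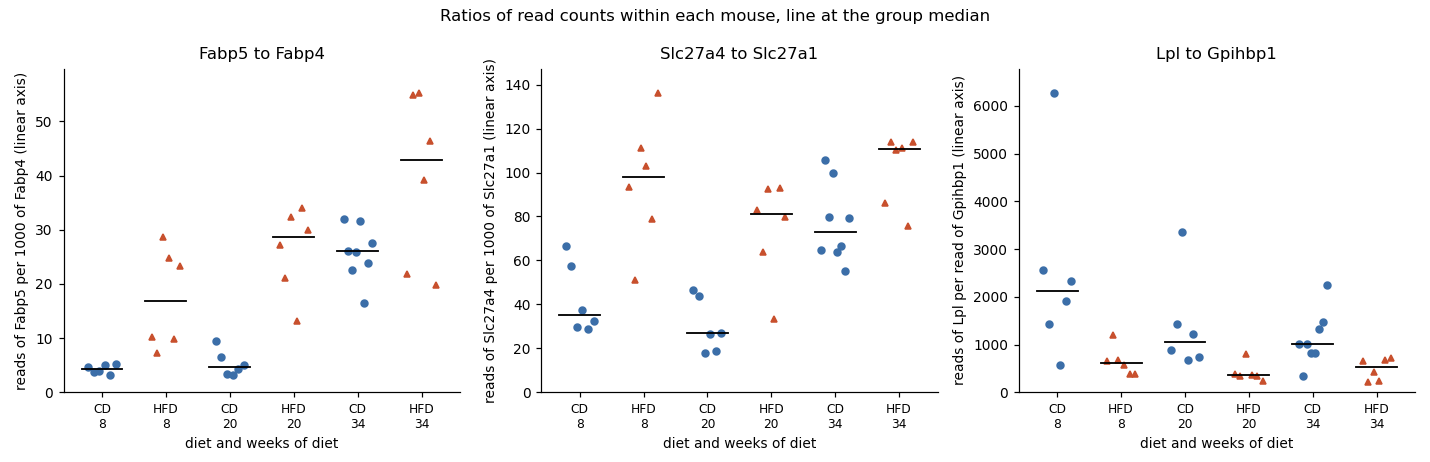
Each panel plots the ratio of the reads of 2 genes in each mouse on a linear axis from 0, by diet and weeks, with a line at the group median: Fabp5 per 1000 Fabp4, Slc27a4 per 1000 Slc27a1, and Lpl per Gpihbp1. The first ratio rises from 4.33 (CD at 8 weeks) to 42.8 (HFD at 34 weeks) by medians.

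Among themselves the 8 genes did not follow a single pattern across the 38 mice, whose values share group differences and depth. The strongest negative correlations of log2(CPM + 1) were between Fabp5 and Slc27a1 (r = -0.729, and -0.498 for deviations from the group means) and between Cd36 and Fabp4 (-0.681 and -0.628). The strongest positive correlation was between Cd36 and Vldlr (0.651 and 0.47). The genes most like Gpihbp1 were Esam (r = 0.96), Ushbp1 (0.947) and Egfl7 (0.942), of which Esam and Egfl7 were among the endothelial markers used above. Those most like Fabp5 were Ube2l3 (0.953), Ap1s1 (0.95) and Dhcr7 (0.95), the last encoding the final enzyme of cholesterol synthesis. Cd36 was most like Ascc3 (0.918), Dennd5a (0.917) and Glg1 (0.913), and Fabp4 most like Chchd2 (0.93), Glrx5 (0.889) and Fxyd1 (0.879). Slc27a1 was most like Pdk2 (0.91), which encodes a pyruvate dehydrogenase kinase, Gstt2 (0.901) and Hsd3b7 (0.888). Slc27a4 was most like Mbd3 (0.894), Rdh14 (0.857) and Paqr4 (0.848), and Vldlr most like Mpdz (0.92), Slc35g1 (0.914) and Pcyox1 (0.898). Lpl had the least alike neighbours, Lrpap1 (0.812), Trhde (0.802) and Adk (0.802). Lrpap1 encodes a chaperone of lipoprotein receptors.

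Of 48 further genes of the pathway in the values, 30 passed the filter on low values. In HFD 7 were higher and 9 lower at 8 weeks, 10 higher and 9 lower at 20 weeks, and 3 higher and 10 lower at 34 weeks. These 16, 19 and 13 calls of 30 stand beside 44.9%, 57.0% and 43.2% of all genes tested. Their median log2 fold change was -0.0017, -0.084 and -0.15, beside 0.11, 0.14 and 0.074 over all genes tested.

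Among genes that control lipoprotein lipase, 11, 11 and 6 of 15 tested were called at 8, 20 and 34 weeks, beside the same 44.9%, 57.0% and 43.2% of all genes tested. Angptl4, which encodes an inhibitor of the lipase, had medians of 1920 CPM in CD and 1213 in HFD at 8 weeks, without overlap, and fell by 0.65 on the log2 scale (adjusted p = 0.0156). At 20 and 34 weeks Angptl4 did not pass the test between the diets, whose ranges overlapped. Its medians were 1712 CPM in CD and 1257 in HFD at 20 weeks, and 886 and 796 at 34 weeks. In CD mice it fell by 1.17 from 8 to 34 weeks (adjusted p = 9.99e-06). Lmf1, whose product matures the lipase, fell by 0.45 at 20 weeks (adjusted p = 9.75e-05) and by 0.27 at 34 weeks (adjusted p = 0.0103). Apoc1, which encodes an apolipoprotein that hinders the lipase, fell by 0.86, 2.17 and 1.14 at the 3 times (adjusted p = 0.00925, 9.23e-08 and 0.00058). Sdc1, the proteoglycan syndecan-1, rose by 1.74, 3.10 and 1.48 (adjusted p = 0.00232, 8.9e-07 and 0.00498), with medians of 8.72 CPM in CD and 104 in HFD at 20 weeks.

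Lrp1, a lipoprotein receptor of broad specificity, was higher in HFD by 0.77 at 20 weeks (adjusted p = 0.0087) and by 0.93 at 34 weeks (adjusted p = 0.00208). Its difference at 8 weeks was -0.46 ± 0.25 (adjusted p = 0.134). Among CD mice Lrp1 fell by 0.76 from 8 to 34 weeks (adjusted p = 0.00517). Of the other carriers, Scp2, which encodes a sterol carrier protein, fell by 0.51, 0.78 and 0.48 (adjusted p = 0.0115, 0.000124 and 0.0106). Its call at 34 weeks was lost without HFD mouse 3 (-0.37, adjusted p = 0.0538). Dbi, the acyl-CoA binding protein, was lower in HFD by 0.74 at 34 weeks (adjusted p = 0.00203), and its differences at 8 and 20 weeks were 0.38 and -0.27 (adjusted p = 0.112 and 0.246). Among CD mice Dbi rose by 0.61 from 8 to 34 weeks (adjusted p = 0.00502).

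Of the 5 regulators, 0 were higher and 2, 2 and 4 lower in HFD at the 3 times, where 15.1%, 18.7% and 15.7% of all genes tested were lower. Pparg, the master regulator of adipocyte differentiation, fell by 0.54 at 34 weeks (adjusted p = 0.00366), where the medians were 270 CPM in CD and 191 in HFD, and Cebpa fell by 0.61 (adjusted p = 0.0017). In CD mice Pparg rose by 0.82 from 20 to 34 weeks (adjusted p = 1.53e-05). Ppard fell by 0.68, 1.01 and 0.40 (adjusted p = 0.0011, 3.7e-06 and 0.0317), the last call being lost without any one of 6 mice. The diet calls of these named genes all held with TMM factors, whereas with the macrophage markers as a covariate 1 of 5 held at 8 weeks, 3 of 6 at 20 weeks and 0 of 9 at 34 weeks. With the endothelial markers as a covariate 1 of 5, 5 of 6 and 3 of 9 held. With only the compared groups fitted, 5 of 9 held at 34 weeks.

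The other fatty acid binding proteins had low levels and were not tested between the diets. Fabp1, Fabp2, Fabp3, Fabp6, Fabp7, Pmp2 (the FABP8 gene), Fabp9 and Fabp12 all stayed below the filter on low values. Fabp6 had 0 reads in every mouse, and the highest single values were 9.17 CPM for Fabp3, 7.60 for Fabp7 and 9.90 for Pmp2. At 8 weeks the medians were 0.084 CPM in CD and 0.82 in HFD for Fabp7. For Fabp9 they went the other way, 1.51 in CD and 0.36 in HFD.

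**Figure D5:**
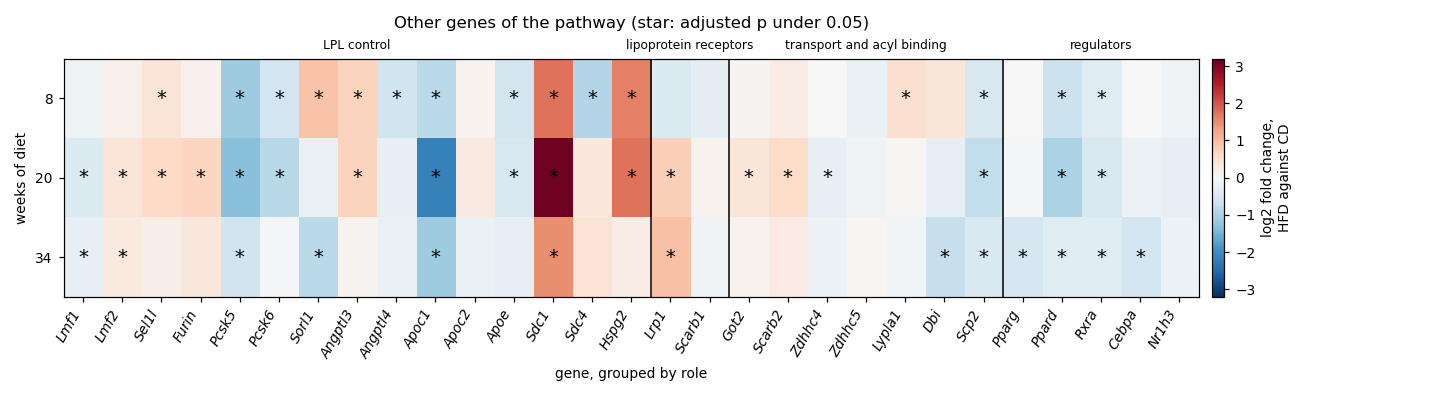
Colour gives the log2 fold change, HFD against CD, of further genes of the pathway that passed the filter, in columns grouped by role, with weeks of diet in rows and a star where the adjusted p was under 0.05. Sdc1 is the deepest red (3.10 at 20 weeks) and Apoc1 the deepest blue (-2.17 at 20 weeks).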

How the data were processed

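Adipocyte libraries were TruSeq stranded mRNA, with 3 technical replicates for each of the 38 mice (114 labelled samples). Per the labels and methods, the authors aligned reads to mm10 (GRCm38) with STAR (2.5.2b in the submitters' processing notes), counted them on exons with featureCounts (Subread 1.5.1) and deposited CPM values with the replicates merged. The methods name TMM factors for CPM, but every column added up to 1000000, so these values were read as CPM without such factors, and 100% were whole multiples of 1 read within 0.1 reads; these reads served the count tests. Depth limits and read steps cover counting error only. The labels number the mice within each group, and same-numbered mice were not treated as pairs. Values were tested as log2(CPM + 1) with limma 3.58.1 in R 4.3.3, with all 6 groups in 1 fit (32 residual degrees of freedom), two-sided, with Benjamini-Hochberg adjustment over 10343 genes and a threshold of 0.05. A fold change on this scale understates the change of low genes. Alternatives were edgeR 4.0.16, DESeq2 1.42.0, other pseudocounts, filters and scalings, covariates and leaving out each mouse. The fits were tested on simulated data. The genes and lists were chosen with earlier results of these data known. Named were the 8 genes, Angptl4, Lmf1, Pparg, the binding protein family and, by role, the 2 genes called with the largest diet difference, and for each of the 8 the 3 most correlated genes. Positions are from RefSeq on GRCm38.p6, transcripts and coding sequences from GENCODE vM21. Adgre1 and Angptl8 were not analysed here, and 1 further gene that the rule names is not reported here.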

Additional observations from a re-analysis of the deposited data

Results flagged for a closer look

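In 7 of 48 groups of mice (8 genes in 6 groups) a single mouse stood apart by Dixon's criterion, applied to CPM. The rate of about 1 group in 20 by chance holds for normally distributed values. CPM was not shown to be so, and the criterion was not applied to log2(CPM + 1), so the count cannot be compared with that rate. The mouse was high for Gpihbp1 in CD at 8 weeks (mouse 4, 26.1 CPM) and at 34 weeks (mouse 2, 38.9 CPM), for Fabp5 in HFD at 34 weeks (mouse 5, 703 CPM), for Slc27a1 in HFD at 8 weeks (mouse 2, 912 CPM) and at 20 weeks (mouse 4, 1032 CPM), and for Slc27a4 in CD at 20 weeks (mouse 2, 44.4 CPM). It was low for Lpl in HFD at 20 weeks (mouse 4, 8032 CPM), the mouse that was also highest in Slc27a1.

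Among the 8 genes and the other named genes, the diet difference itself changed with time, by limma's interaction term, in 8 cases. Of all 30 further genes of the pathway tested, named or not, it called 3 from 8 to 20 weeks, 1 from 20 to 34 and 9 from 8 to 34. The same term called 4.49% of all genes tested from 8 to 20 weeks, 10.5% from 20 to 34 and 28.8% from 8 to 34. For Fabp5 it changed by -2.26 from 20 to 34 weeks (adjusted p = 0.000249) and by -1.97 from 8 to 34 weeks (adjusted p = 0.000175). For Lrp1 it changed by 1.23 from 8 to 20 weeks (adjusted p = 0.0407) and by 1.38 from 8 to 34 weeks (adjusted p = 0.00297). From 8 to 20 weeks that of Apoc1 changed by -1.32 (adjusted p = 0.0395). From 8 to 34 weeks the change was -1.13 for Dbi (adjusted p = 0.00243), -0.55 for Pparg (adjusted p = 0.0495) and -0.63 for Cebpa (adjusted p = 0.0299).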

How the results depend on the processing

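Calls of Fabp5 between the diets at 8 and 20 weeks, between the times in CD mice and in both changes of the diet difference held under all 13 alternatives and without any 1 mouse, as did Vldlr at 8 weeks and Slc27a1 at 20 weeks. Requiring a 2-fold change left 3, 3 and 0 of the 8 genes between the diets at 8, 20 and 34 weeks, 1 in CD at 34 against 8 or 20 weeks and 0 in HFD at 20 or 34 against 8 weeks. With the endothelial markers as a covariate, added after seeing the data, 2 were called at 8 weeks, 1 at 34 weeks and 2 for the change of the diet difference from 8 to 34 weeks. With the macrophage markers as a covariate 1 was called at 34 weeks, 0 in HFD at 20 or 34 against 8 weeks, 1 in HFD at 34 against 20 weeks and 2 for that change. With no filter on low values 1 was called at 34 weeks, 0 in HFD at 20 and 1 at 34 against 8 weeks. With only the compared groups 1 was called at 34 weeks, 1 in HFD at 34 against 8 weeks and 1 against 20 weeks. With a weight for each mouse 1 was called at 34 weeks, 4 in HFD at 20 against 8 weeks, 2 at 34 against 20 weeks, and 1, 3 and 4 for the changes of the diet difference from 8 to 20, 20 to 34 and 8 to 34 weeks. DESeq2 called 4 at 34 weeks and 1 and 2 for the changes from 8 to 20 and 8 to 34 weeks, and edgeR 2 for the latter. The labels give no pairing by mouse number. Correlations of same-numbered mice ranged from -0.509 to 0.529, too wide a range to decide whether they are pairs. With the number as a block 6 were called in CD at 34 against 8 weeks and 2 for the change from 8 to 34 weeks. Without 1 mouse, 4 to 7 were called at 20 weeks (4 without CD mouse 3), 2 to 5 in CD at 34 against 8 weeks, 1 to 2 in HFD at 20 against 8 weeks, 0 to 1 at 34 against 20 weeks, 0 to 1 for the change from 8 to 20 weeks and 1 to 4 for that from 8 to 34 weeks. Between the diets, the values that changed sign, none of them called, were Fabp4 at 8 weeks (-0.097 with TMM, -0.11 with median-of-ratios factors, -0.10 in edgeR, -0.093 in DESeq2, -0.0082 with weights, -0.030 to 0.049 without 1 mouse) and at 20 weeks (0.044, macrophage markers), Fabp5 at 34 weeks (0.17, weights), Slc27a4 at 34 weeks (0.058, macrophage markers; 0.0021, endothelial markers; 0.11, weights; -0.082 to 0.025 without 1 mouse), and Gpihbp1 with the endothelial markers at 20 weeks (-0.089) and 34 weeks (-0.26), whose call at 20 weeks was lost. Of 3060 values not called in the comparisons of times and of diet differences, 86 changed sign, of which 0 were called. The cause was not tested. Over all genes, the 4648, 5894 and 4468 called between the diets became 1191, 1863 and 1019 at a 2-fold change, 2597 and 737 at 20 and 34 weeks with the macrophage markers, 2554 and 1992 at 8 and 34 weeks with the endothelial markers, 7032 at 8 weeks with weights and 2457 at 34 weeks with only the compared groups. For time in CD, 370 (20 against 8 weeks) became 590 in DESeq2, 845 with the macrophage markers, 1543 with weights and 125 at a 2-fold change, and 6696 and 6466 (34 against 8 and 20 weeks) became 1585 and 1469 at a 2-fold change. For time in HFD, 3772 (20 against 8) became 579, 6392 and 946 with macrophage markers, weights and a 2-fold change, 5432 (34 against 8) became 1815 and 1336 with macrophage markers and a 2-fold change, and 3126 (34 against 20) became 5016 and 360 with weights and a 2-fold change. For the change of the diet difference, 464 (8 to 20) became 851, 969, 2698, 4263 and 176 with DESeq2, endothelial markers, compared groups, weights and a 2-fold change, 1089 (20 to 34) became 723, 3407 and 347 with compared groups, weights and a 2-fold change, and 2982 (8 to 34) became 723 at a 2-fold change.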
